A study of Mus musculus with 6 samples.

Results

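The genes described here are the NF-κB subunit genes Nfkb1, Nfkb2, Rela and Relb, the genes of the IκB family Nfkbia, Nfkbib, Nfkbie and Nfkbiz, and the ubiquitin-editing feedback genes Tnfaip3 and Birc3. They were picked by symbol as the core of the pathway and its feedback loop. All 10 were found among the 24982 genes listed for each library. The 9 genes other than Birc3 were among the 12450 genes with enough coverage to be tested.

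NF-κB transcription factors are dimers that are held in the cytoplasm by IκB proteins. Signals from receptors for TNF, interleukin-1 or microbial products activate the IκB kinase, IκB is degraded, and the freed dimers enter the nucleus and switch on genes for cytokines, chemokines and survival factors. Several of these target genes encode the inhibitors themselves, IκBα and A20 (the Tnfaip3 product) among them, which closes a feedback loop; in the skin, mice without IκBα develop severe inflammation soon after birth.

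RNA-seq of poly(A) RNA was compared between 2 groups of mouse keratinocytes, called lines here, with 3 libraries of each. The KSFM-Ca2+ cells came from neonatal skin of C57BL/6 mice and were grown in a keratinocyte serum-free medium low in calcium. The DKSFM cells were made from the KSFM-Ca2+ cells by adaptation to the defined medium DKSFM, and neither line was treated. The comparison asks how the adapted line differs from its parent.

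As a model, each group is treated as a single line, though the labels do not say whether its libraries came from 1 derived line or more. The DKSFM cells are those that came through the change of medium, so that the medium and the selection of cells cannot be told apart. The labels do not say whether the replicates of a line were separate cultures, so the p-values measure only the spread between these libraries, which may be technical. In addition, KSFM-Ca2+ replicate 3 and all DKSFM replicates came in files marked as combined, a word that is not explained, while KSFM-Ca2+ replicates 1 and 2 did not. This mark partly follows the line. In bulk RNA, fewer cells that express a gene and less RNA per cell cannot be told apart.

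For each gene the files hold its average coverage by reads at a base, with 1 decimal. Summed over genes, coverage was 1601680, 1238410 and 1057750 in KSFM-Ca2+ replicates 1 to 3, and 1174350, 1239440 and 1170680 in DKSFM replicates 1 to 3. Read counts were not used here, so the depth is given on this scale, and the rounding step of 0.1 is the smallest value that can be seen. Coverage was normalized between libraries, and because it is expressed per base, levels of different genes are compared per length throughout. Within a line the libraries correlated with r of 0.992 to 0.995 across genes, and between lines with r of 0.850 to 0.858.

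The keratinocyte identity given in the labels was checked with 8 markers, all of which were covered in both lines. Their summed normalized coverage was 20683, 21038 and 20652 in the KSFM-Ca2+ libraries and 50249, 46467 and 50706 in the DKSFM libraries, with Krt14 the most abundant. By limma's test 7 of the 8 were higher in the DKSFM cells at an adjusted p under 0.01, and Itgb4 was lower. Most markers of other cell types were at or near 0, with Cd68, Pecam1, Pdgfra and, in the KSFM-Ca2+ cells, Cd74 as exceptions. Of the 9 immune markers 2 were tested, the list summed to 12.2, 12.8 and 14.7 in the KSFM-Ca2+ libraries and 13.8, 19.2 and 20.9 in the DKSFM libraries, Cd68 made up most of it (means of 11.6 and 17.8, higher in the DKSFM cells), Cd74 was listed at 1.6, 1.5 and 1.6 in the KSFM-Ca2+ libraries and at 0 in all DKSFM libraries, and Cd3e and Adgre1 were listed at 0 in all 6 libraries. Ptprc, a marker gene of white blood cells, was listed at 0 in all libraries but DKSFM replicate 2, where it stood at 0.1. Of the 7 fibroblast markers only Pdgfra was tested; the list summed to 1.15, 0.898 and 1.31 in the KSFM-Ca2+ libraries and 2.36, 2.12 and 2.25 in the DKSFM libraries, all of it Pdgfra, since Col1a1, Col1a2, Col3a1, Pdgfrb, Dcn and Lum were at 0. The 5 melanocyte markers summed to at most 0.898 in any library, with Pmel the most abundant and Dct and Tyr at 0. The 5 endothelial markers summed to 2.69, 2.80 and 3.10 in the KSFM-Ca2+ libraries and 8.14, 8.27 and 7.17 in the DKSFM libraries. Most of that came from Pecam1 (means of 2.80 and 7.65, a 2.73-fold difference), while Cdh5, Emcn and Tie1 were at 0.

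The promoters show what several of these genes share in sequence. RefSeq promoter windows on GRCm38.p6, from 250 bases before to 50 bases after a transcription start, were found for 7 of the 10 genes, with 10 windows in all. Nfkb1, Relb and Nfkbiz had none in the table. The κB consensus, the sequence bound by NF-κB dimers, was looked for on both strands. It occurred in 6 of the 10 windows, against 8.46% of all 32851 windows in the table and 10.5% of the 12321 windows of tested genes. Counted by gene, it occurred in 4 of the 7, against 9.55% of all genes in the table and 12.4% of tested genes. Matches overlap where the motif reads on both strands, and 2 of the 3 Nfkb2 windows share 1 match because they overlap. Shown first are windows of the genes that fell by 2-fold and had an entry, then a window of Nfkb2, and that of Nfkbib, which rose, for comparison. Capitals mark κB matches, and each sequence is written in the direction of the gene. The windows lie at chr12:55492598-55492897 on the minus strand (Nfkbia), chr17:45555450-45555749 on the plus strand (Nfkbie), chr10:19015361-19015660 on the minus strand (Tnfaip3), chr19:46304487-46304786 on the plus strand (Nfkb2) and chr7:28766595-28766894 on the minus strand (Nfkbib).
Nfkbia: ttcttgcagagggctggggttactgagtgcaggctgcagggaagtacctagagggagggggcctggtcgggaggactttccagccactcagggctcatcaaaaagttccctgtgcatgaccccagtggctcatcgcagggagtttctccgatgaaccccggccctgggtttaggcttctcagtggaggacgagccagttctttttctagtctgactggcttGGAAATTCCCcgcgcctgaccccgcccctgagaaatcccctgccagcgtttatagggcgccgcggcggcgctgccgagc
Nfkbie: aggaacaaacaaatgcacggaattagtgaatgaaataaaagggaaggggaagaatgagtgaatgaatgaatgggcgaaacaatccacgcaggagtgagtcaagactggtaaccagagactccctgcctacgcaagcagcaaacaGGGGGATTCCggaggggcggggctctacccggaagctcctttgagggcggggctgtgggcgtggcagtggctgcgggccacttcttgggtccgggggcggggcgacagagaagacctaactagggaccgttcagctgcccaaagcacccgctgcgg
Tnfaip3: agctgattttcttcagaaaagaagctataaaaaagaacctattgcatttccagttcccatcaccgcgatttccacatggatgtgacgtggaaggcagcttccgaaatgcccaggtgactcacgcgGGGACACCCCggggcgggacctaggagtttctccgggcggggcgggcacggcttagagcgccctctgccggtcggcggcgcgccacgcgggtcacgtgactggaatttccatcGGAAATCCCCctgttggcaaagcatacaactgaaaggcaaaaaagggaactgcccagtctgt
Nfkb2: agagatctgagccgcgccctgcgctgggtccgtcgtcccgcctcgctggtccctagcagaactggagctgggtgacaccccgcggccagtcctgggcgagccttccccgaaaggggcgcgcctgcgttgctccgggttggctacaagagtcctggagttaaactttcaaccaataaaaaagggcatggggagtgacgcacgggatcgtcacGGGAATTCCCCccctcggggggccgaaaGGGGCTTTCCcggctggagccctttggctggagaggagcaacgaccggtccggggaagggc
Nfkbib: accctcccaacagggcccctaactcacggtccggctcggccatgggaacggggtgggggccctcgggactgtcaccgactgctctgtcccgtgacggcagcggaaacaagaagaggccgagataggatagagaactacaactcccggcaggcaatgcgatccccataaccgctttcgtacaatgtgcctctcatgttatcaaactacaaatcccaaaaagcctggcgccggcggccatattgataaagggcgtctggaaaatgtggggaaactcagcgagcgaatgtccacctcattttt

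With the first base of the transcript as base 0, the Nfkbia match began at base -29 and the Nfkbie match at base -106. In Tnfaip3 matches began at bases -125 and -12, and in the Nfkb2 window shown they began at bases -39, -38 and -11. The other Nfkb2 windows had matches at bases -236 and 10 and at base -225. The windows of Nfkbib, Rela and Birc3 and the second window of Tnfaip3 contained no match. A match describes the letters only, and its absence from a window says nothing about binding elsewhere.

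**Figure D1:**
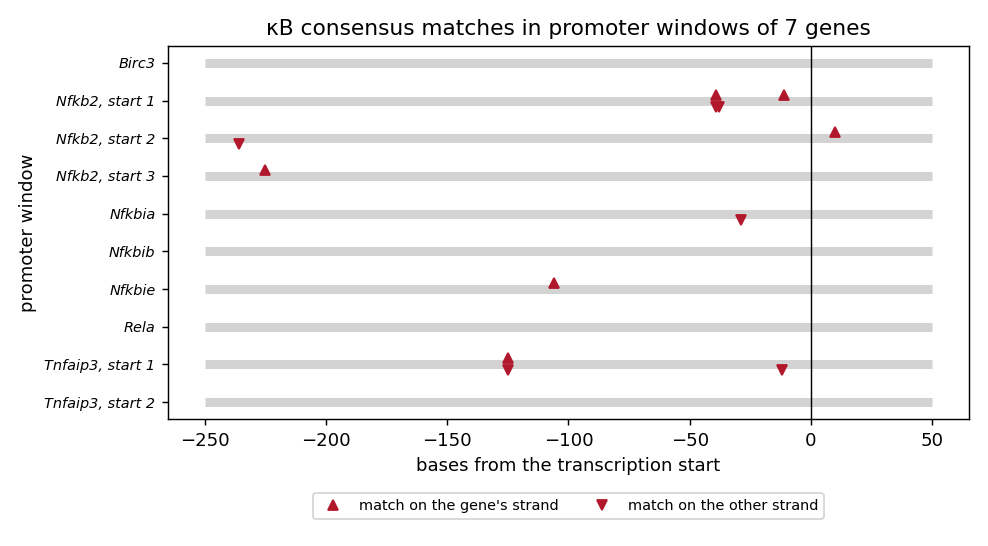
Position of κB consensus matches in the 10 promoter windows of 7 genes, with bases from the transcription start on the x axis and each window drawn as a grey bar. Triangles point up for a match on the strand of the gene and down for one on the other strand; 6 windows hold a match and 4 hold none.

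Between the lines, most inhibitor genes fell more than the subunit genes. Of the 9 tested genes, 6 were lower in the DKSFM cells at an adjusted p under 0.01 (limma, Benjamini-Hochberg over all tested genes), where 37% of all tested genes were lower. Another 2 of the 9 were higher, against 35.5% of all tested genes. At least 2-fold lower were 4 of the 9, Nfkbia, Nfkbie, Nfkbiz and Tnfaip3, against 10.5% of all tested genes. None was higher by 2-fold at an adjusted p under 0.01, while 13.3% of tested genes were. At an unadjusted p under 0.05 (limma) none of the 9 was higher by 2-fold either. The 3 libraries of the DKSFM cells lay below all 3 of the KSFM-Ca2+ cells in 7 of the 9 genes (42% of tested genes) and above them in 2 (41.2%). The median log2 fold change of the 9 genes, DKSFM over KSFM-Ca2+, was -0.65, that of all tested genes 0.00.

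**Figure D2:**
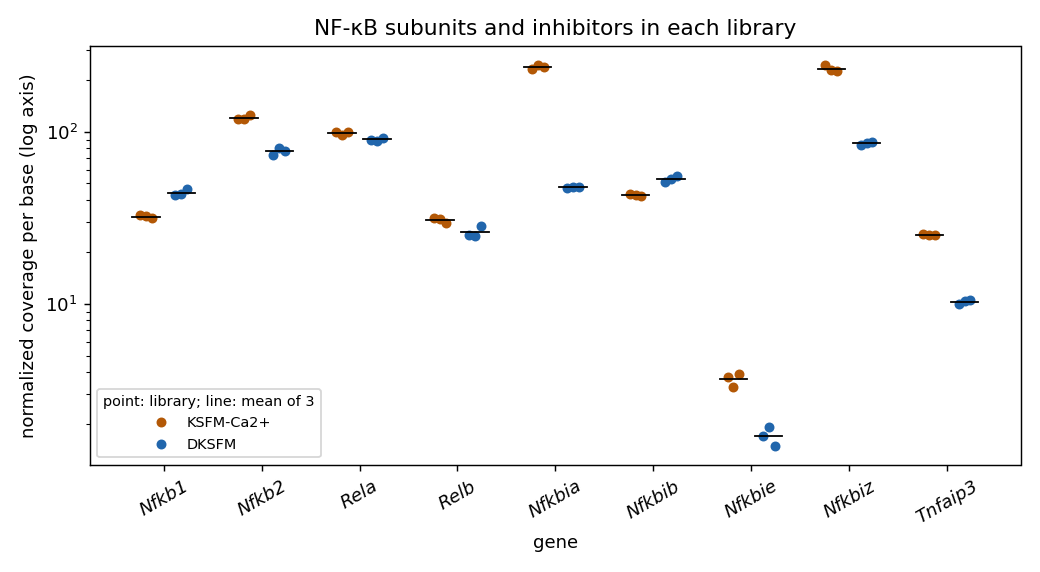
Normalized coverage per base (log axis) of the 9 tested genes in each of the 6 libraries, with a point per library and a line at the mean of 3. Nfkbia, Nfkbiz, Tnfaip3 and Nfkbie show the widest gaps between the lines, and Rela the narrowest.

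Among the subunits, changes were small and went in both directions. Nfkb1 encodes p105, the precursor of the DNA-binding subunit p50. Its normalized coverage was 32.6, 32.2 and 31.4 in the KSFM-Ca2+ libraries and 42.8, 43.5 and 46.7 in the DKSFM libraries. Every DKSFM library was above every KSFM-Ca2+ library. The means were 32.1 ± 0.600 and 44.3 ± 2.07 (SD, n = 3), a log2 fold change of 0.46 with a standard error of 0.04 (adjusted p = 2.33e-05, limma). Nfkb2 encodes p100, which gives rise to p52 and, while unprocessed, itself retains RelB in the cytoplasm. Coverage was 119, 118 and 126 in the KSFM-Ca2+ libraries and 73.5, 80.4 and 76.7 in the DKSFM libraries. All DKSFM libraries were the lower ones, opposite to Nfkb1. From 121 ± 4.10 to 76.9 ± 3.44 the log2 fold change was -0.65 with a standard error of 0.04 (adjusted p = 2.06e-06, limma). The ratio of Nfkb2 to Nfkb1 coverage was thus 3.77 ± 0.195 in the KSFM-Ca2+ cells and 1.74 ± 0.104 in the DKSFM cells. At the Nfkb2 locus the annotation also holds Psd and the noncoding gene 4833438C02Rik. Their listed coverage was at most 1.2 and 10 in any library, the latter being higher in the DKSFM libraries, and although the libraries were directional and aligned with a strand setting, whether the coverage values kept strands apart is not stated.

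Rela and Relb encode subunits with transactivation domains. Rela had a normalized coverage of 99.1, 95.2 and 99.9 in the KSFM-Ca2+ libraries and 89.8, 88.7 and 92.4 in the DKSFM libraries. The lines did not overlap, yet the gap was small. With means of 98.1 ± 2.51 and 90.3 ± 1.89, the log2 fold change of -0.12 (standard error 0.03) did not pass the threshold (adjusted p = 0.0101, limma), and it did pass when libraries were scaled by their totals alone (adjusted p = 0.0055; over all alternatives 0.0055 to 0.0477). Relb stood at 31.4, 31.0 and 29.3 (KSFM-Ca2+) and at 25.2, 24.6 and 28.1 (DKSFM). Here too the DKSFM libraries were the lower ones, with DKSFM replicate 3 nearest to the other line. The log2 fold change was -0.24 (standard error 0.06, adjusted p = 0.00689, limma). That call did not last when KSFM-Ca2+ replicate 1 or 2 or DKSFM replicate 1 or 2 was left out (log2 fold changes of -0.22, -0.22, -0.20 and -0.19, adjusted p = 0.0276, 0.0255, 0.0380 and 0.0335). It was also lost with relative log expression scaling (-0.22, adjusted p = 0.0101), and, with the fold change unchanged at -0.24, without the trend or with a replicate block (adjusted p = 0.0156 and 0.0155). With the combined libraries alone, which set KSFM-Ca2+ replicate 3 against the 3 DKSFM libraries and take the spread from the DKSFM line, it was -0.18 (adjusted p = 0.19; over all alternatives 0.00178 to 0.19).

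The IκB family held the largest changes. Nfkbia encodes IκBα, the inhibitor that is degraded and made anew within each round of signalling. Its normalized coverage was 231, 244 and 238 in the KSFM-Ca2+ libraries and 47.2, 47.6 and 47.8 in the DKSFM libraries. Replicates lay close together in both lines and far from those of the other line. The means of 237 ± 6.80 and 47.5 ± 0.347 gave a log2 fold change of -2.32 with a standard error of 0.03 (adjusted p = 6.82e-10, limma). Per base, its level exceeded 92.1% of tested genes in the KSFM-Ca2+ cells and 64.8% in the DKSFM cells. The study itself picked Nfkbia as an inflammation gene from these libraries, so its direction is not independent evidence.

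Nfkbiz encodes IκBζ, an IκB protein of the nucleus that can also act as a coactivator of chosen target genes, in keratinocytes most of all downstream of interleukin-17 and interleukin-36. It was covered at 242, 230 and 225 (KSFM-Ca2+) and at 84.2, 85.6 and 87.1 (DKSFM). Per base it overlapped with Nfkbia in the KSFM-Ca2+ libraries and was the more abundant of the pair in the DKSFM libraries. The means of 232 ± 9.15 and 85.7 ± 1.44 differed 2.71-fold, with a log2 fold change of -1.44 and a standard error of 0.04 (adjusted p = 1.12e-08, limma). Nfkbie, for IκBε, was a gene of low coverage, with 3.77, 3.29 and 3.93 in the KSFM-Ca2+ libraries and 1.71, 1.92 and 1.5 in the DKSFM libraries. The lines did not overlap, but the fold change lay close to the 2-fold limit. It was -1.06 on the log2 scale (standard error 0.13, adjusted p = 1.09e-04, limma), and fell short of 2-fold without DKSFM replicate 3 (-0.97) and with a pseudocount of 0.5 (-0.92) or 1 (-0.78), still at an adjusted p under 0.01.

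Nfkbib, which encodes IκBβ, went the other way. It had 43.6, 42.9 and 42.4 in the KSFM-Ca2+ libraries and 50.7, 53.3 and 55.4 in the DKSFM libraries. All DKSFM libraries were above those of the parent line. The log2 fold change from 43.0 ± 0.611 to 53.1 ± 2.37 was 0.30 (standard error 0.04, adjusted p = 2.03e-04, limma), and it was not called with the combined libraries alone, where the fold change was as large (0.32) but the KSFM-Ca2+ line had 1 library (adjusted p = 0.0172; over all alternatives 1.15e-04 to 0.0172). Ccer2, which overlaps Nfkbib in the annotation, was listed at no more than 0.1.

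Tnfaip3 encodes A20, a ubiquitin-editing enzyme that shuts off signalling from TNF and interleukin-1 receptors. Its coverage was 25.4, 25.1 and 25.0 in the KSFM-Ca2+ libraries and 9.97, 10.4 and 10.5 in the DKSFM libraries. The replicates of each line hardly differed, and the lines were well apart. The means of 25.2 ± 0.205 and 10.3 ± 0.277 differed 2.45-fold, with a log2 fold change of -1.28 and a standard error of 0.05 (adjusted p = 9.28e-08, limma). Birc3, which encodes the ubiquitin ligase cIAP2, was listed at 0.1, 0.1 and 0 in the KSFM-Ca2+ libraries and at 0 in each DKSFM library. With values at the rounding step it was not tested, and no difference could be detected at this depth.

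The families have 3 more genes. Rel encodes c-Rel, a subunit best known from lymphocytes, and was low in both lines, with 4.15, 3.49 and 3.69 in the KSFM-Ca2+ libraries and 4.18, 4.14 and 4.28 in the DKSFM libraries. The lines overlapped, and the difference did not reach the threshold (0.15 on the log2 scale with a standard error of 0.10; limma, adjusted p = 0.178). Bcl3, an IκB protein that binds p50 and p52 in the nucleus, had 4.77, 3.79 and 4.17 in the KSFM-Ca2+ libraries and 15.2, 14.0 and 13.6 in the DKSFM libraries. It was the only gene of the families to rise by more than 2-fold (1.73 on the log2 scale with a standard error of 0.10; limma, adjusted p = 8.29e-07). Nfkbid, for IκBNS, was listed at 1.2, 0.9 and 0.5 (KSFM-Ca2+) and at 0, 0 and 0.1 (DKSFM). Against the rounding step the KSFM-Ca2+ mean was 8.06-fold higher. It passed the filter through the KSFM-Ca2+ line alone, so its direction came with the filter, and the fitted fold change depends on the pseudocount. No test result is given for it.

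**Figure D3:**
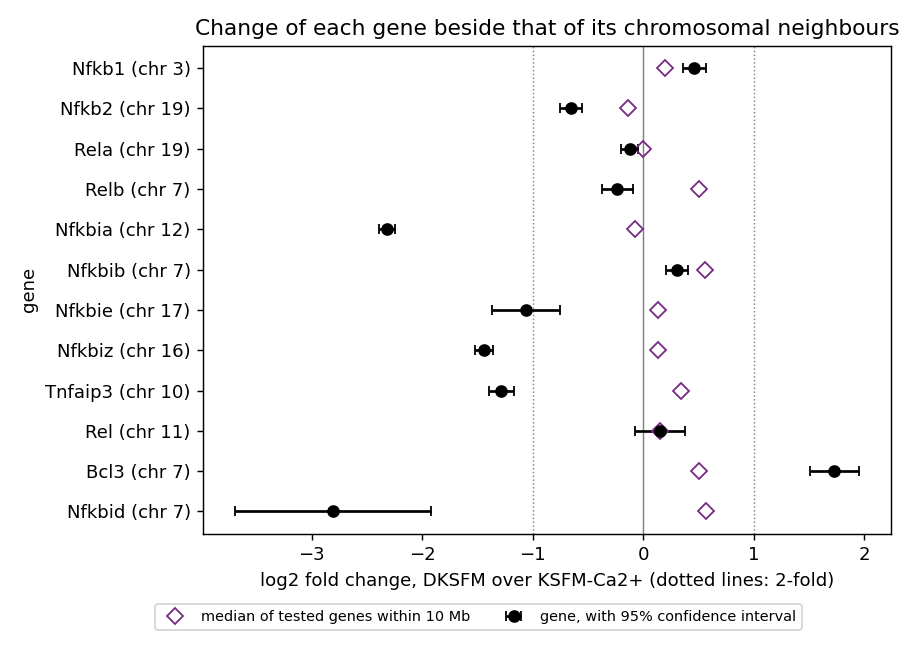
Log2 fold change, DKSFM over KSFM-Ca2+, of the tested genes of the families and Tnfaip3, with 95% confidence intervals (filled points), beside the median of tested genes within 10 Mb (open diamonds). Relb, Nfkbib, Bcl3 and Nfkbid lie on chromosome 7, where neighbouring genes had medians of 0.51 to 0.57. The size of the Nfkbid change depends on the pseudocount. Nfkbid passed the filter through the KSFM-Ca2+ line alone, so its point and interval are no evidence of direction.

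Genes along a chromosome shifted together in places, and for 4 of these genes the shift was of the size of some of the changes. On chromosome 7 the tested genes within 10 Mb had a median log2 fold change of 0.51 around Relb and Bcl3, 0.56 around Nfkbib and 0.57 around Nfkbid. Relative to these neighbours Nfkbib was lower, at -0.26 where its own fold change was 0.30, and Relb was lower by more, at -0.74. Bcl3 remained higher, at 1.23. Around Tnfaip3 on chromosome 10 the median was 0.35, around Nfkb1 on chromosome 3 it was 0.20, and around Nfkb2 on chromosome 19 it was -0.13. Around Nfkbia on chromosome 12 it was -0.08, and around both Nfkbie on chromosome 17 and Nfkbiz on chromosome 16 it was 0.13. Relative to their neighbours the log2 fold changes were -2.24 for Nfkbia, -1.57 for Nfkbiz, -1.63 for Tnfaip3, -1.19 for Nfkbie, -0.52 for Nfkb2 and 0.27 for Nfkb1. The part of the neighbourhoods in these results was not tested.

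The balance between the genes changed with the line. Coverage per base summed over the 4 subunit genes was 282, 276 and 286 in the KSFM-Ca2+ libraries and 231, 237 and 244 in the DKSFM libraries. For the 4 IκB-family genes it was 520, 520 and 509 in the KSFM-Ca2+ libraries and 184, 188 and 192 in the DKSFM libraries. These 4 IκB-family genes outweighed the subunit genes in each KSFM-Ca2+ library and fell below them in each DKSFM library. The ratios were 1.83 ± 0.0525 and 0.792 ± 0.00455 (SD, n = 3). Nfkbiz, whose product can also act as a coactivator, made up 45.0% (KSFM-Ca2+) and 45.6% (DKSFM) of the IκB-family sum on average. Without Nfkbiz, the IκB-family genes would not have outweighed the subunit genes in every KSFM-Ca2+ library. Bcl3 and Nfkbid are not in the sum, and Nfkb2 is counted as a subunit only. For Nfkbia over Rela alone, IκBα and the subunit it binds, the ratio of coverage per base was 2.42 ± 0.125 in the KSFM-Ca2+ cells and 0.527 ± 0.00961 in the DKSFM cells. These ratios describe RNA coverage and were not tested.

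Within the subunits, Nfkb1 made up 11.4 ± 0.365% of the summed coverage per base in the KSFM-Ca2+ cells and 18.7 ± 0.423% in the DKSFM cells. Nfkb2 went from 42.9 ± 0.852% to 32.4 ± 1.32%, and Rela from 34.8 ± 0.335% to 38.0 ± 0.735%. The share of Relb was 10.9% in both lines. Within the IκB family, Nfkbia made up 46.0 ± 1.47% in the KSFM-Ca2+ cells and 25.3 ± 0.363% in the DKSFM cells, and Nfkbib 8.32 ± 0.0647% and 28.2 ± 0.655%. Nfkbiz kept close to the same share, 45.0 ± 1.40% and 45.6 ± 0.236%, while the whole shrank.

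**Figure D4:**
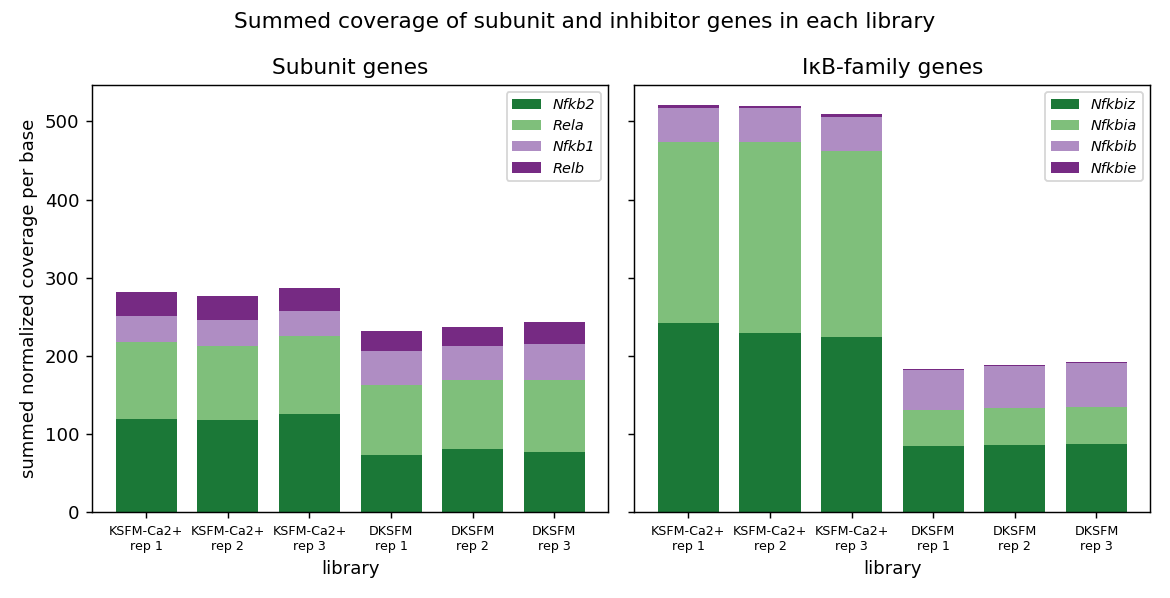
Normalized coverage per base summed over the 4 subunit genes (left) and the 4 IκB-family genes (right) in each library, with bars divided by gene. The IκB-family sum is 509 to 520 in the KSFM-Ca2+ libraries and 184 to 192 in the DKSFM libraries, above and below the subunit sums of the same libraries.

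The order of levels per base changed as well. In the KSFM-Ca2+ cells Nfkbia and Nfkbiz came first, with libraries that overlapped each other, followed by Nfkb2, Rela, Nfkbib, Nfkb1, Relb, Tnfaip3, Nfkbie and Birc3. Libraries of neighbours in this order did not overlap, except that Nfkb1 and Relb came as close as the rounding of the files. In the DKSFM cells the order was Rela, Nfkbiz, Nfkb2, Nfkbib, Nfkbia, Nfkb1, Relb, Tnfaip3, Nfkbie and Birc3, and no neighbours overlapped. Rela moved from the fourth place to the first with little change of its own, and Nfkbia from the first to the fifth.

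Genes with a profile over the 6 libraries most like that of Nfkbia, by Euclidean distance of log2 values centred on each gene's mean, were Mt2, Tsku and Afap1l1, at distances of 0.122, 0.150 and 0.154. Mt2, a metallothionein gene, had a normalized coverage of 5500, 5402 and 5511 in the KSFM-Ca2+ libraries and 1078, 1020 and 1087 in the DKSFM libraries. Nearest to Nfkb2 were Poc5, Rab3gap1 and Eif2a, at distances of 0.0547, 0.0613 and 0.0628. In a design of 2 lines such likeness mostly reflects a similar difference between the lines.

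Upstream of IκB, Ikbke was the gene of the kinase module that changed most. Of its 12 tested genes 3 were lower and 4 higher at an adjusted p under 0.01 (limma), 1 of them by 2-fold, and the median log2 fold change was 0.04. The shares, 25% lower and 33.3% higher, were no larger than those of all tested genes (37% and 35.5%). Ikbke, which encodes the IκB kinase-related enzyme IKKε, had 69.3, 75.3 and 76.4 in the KSFM-Ca2+ libraries and 11.6, 10.1 and 11.7 in the DKSFM libraries. The lines were far apart (-2.72 on the log2 scale with a standard error of 0.07; limma, adjusted p = 1.20e-08). The study had picked this gene too as an inflammation gene from these libraries. The genes of both catalytic subunits fell. Chuk, for IKKα, went from 106 ± 0.573 to 68.9 ± 2.40 (log2 fold change -0.62), and Ikbkb, for IKKβ and named here after its values were seen, from 54.6 ± 1.96 to 38.1 ± 2.50 (-0.52; limma, adjusted p = 4.01e-05). The NEMO gene Ikbkg, the most abundant of the module per base, stood at 120 ± 1.5 and 114 ± 3.84 and did not pass the threshold (adjusted p = 0.0677). In the other direction Azi2 had 19.9 ± 0.619 and 26.6 ± 1.26, and Tbk1, the close relative of IKKε, 23.0 ± 0.600 and 28.9 ± 0.931. Their log2 fold changes were 0.41 and 0.33. Neighbouring genes had medians of -0.43 around Ikbke, -0.22 around Chuk, -0.28 around Ikbkb, 0.20 around Azi2 and 0.26 around Tbk1.

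The adaptors and ubiquitin ligases that link receptors to the kinase differed little. Of 15 tested genes 4 were lower and 2 higher at an adjusted p under 0.01, none by 2-fold (1 under quantile normalization), and the median was 0.02. Both shares, 26.7% and 13.3%, were below those of all tested genes. Traf1 was listed at 0 throughout. Rbck1, which encodes the HOIL-1 subunit of the linear ubiquitin ligase complex, came closest to 2-fold, with 271, 247 and 258 in the KSFM-Ca2+ libraries and 492, 500 and 514 in the DKSFM libraries. It was the most abundant gene of its list per base and was higher in each DKSFM library (0.96 on the log2 scale with a standard error of 0.04; limma, adjusted p = 1.24e-07). Birc2, the cIAP1 gene and closest relative of Birc3, was readily covered, with 22.0 ± 2.62 in the KSFM-Ca2+ cells and 30.5 ± 0.916 in the DKSFM cells. Tradd went from 43.0 ± 0.783 to 30.7 ± 2.98 and Traf3, which restrains the alternative pathway, from 30.1 ± 0.943 to 23.3 ± 0.757. Around Tradd the neighbouring genes were lower as well, with a median of -0.54.

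Other negative regulators went in both directions. Of 12 tested genes 5 were lower (3 by 2-fold) and 4 higher (1 by 2-fold) at an adjusted p under 0.01, and their median was -0.15. That is 41.7% lower and 33.3% higher, where all tested genes had 37% and 35.5%. By 2-fold, 25% were lower and 8.33% higher, where all tested genes had 10.5% and 13.3%. Irak3, lower by 2-fold, passed the filter through the KSFM-Ca2+ line, so its direction came with the filter. Among the 11 genes covered in every library, 4 were lower (2 by 2-fold, or 18.2%) and 4 higher (1 by 2-fold, or 9.09%). Under that filter 8.62% of all genes were lower by 2-fold and 9.28% higher. Zc3h12a, which encodes the RNase Regnase-1 that degrades cytokine mRNAs, had 14.3, 13.5 and 13.1 in the KSFM-Ca2+ libraries and 4.07, 3.83 and 3.96 in the DKSFM libraries. It fell along with Tnfaip3 and Nfkbia (-1.76 on the log2 scale with a standard error of 0.07; limma, adjusted p = 1.22e-07). The deubiquitinase gene Cyld went from 80.3 ± 1.12 to 54.0 ± 3.53, in a neighbourhood with a median of -0.51. Otud7b, for the deubiquitinase Cezanne, rose from 20.5 ± 0.636 to 45.9 ± 0.740 (log2 fold change 1.16, adjusted p = 7.15e-08, limma), with neighbours at a median of 0.52. Tax1bp1, which encodes a partner of A20 and was the most abundant of the list per base, rose from 272 ± 3.55 to 477 ± 9.87.

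Of the 14 genes for upstream ligands, 7 were tested and all 7 passed the threshold, 4 lower and 3 higher by 2-fold (57.1% and 42.9%, against 10.5% and 13.3% of all tested genes). Most of them passed the filter through the line in which they were high. Their median of -2.43 lies between genes that moved in opposite directions, several of them near 0 in 1 line, where the fitted value depends on the pseudocount. Il1a, for interleukin-1α, was listed at 131.8, 106.4 and 102.1 (KSFM-Ca2+) and at 0.4, 0.6 and 0.2 (DKSFM). Tnf was listed at 15.3, 12.1 and 13.0 in the KSFM-Ca2+ libraries and at 0 in all DKSFM libraries. Both ligands were thus confined, at this depth, almost wholly to the KSFM-Ca2+ libraries. Il1f9, the older symbol of the interleukin-36γ gene Il36g, had a normalized coverage of 1.92, 2.0 and 1.79 in the KSFM-Ca2+ libraries and 6.32, 7.46 and 5.24 in the DKSFM libraries. It rose where Il1a and Tnf fell (1.67 on the log2 scale with a standard error of 0.14; limma, adjusted p = 8.67e-06). With a filter on every library only 1 ligand gene in each direction was left past 2-fold.

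Receptor genes were mostly lower. Of the 14, 10 were tested, with 7 lower (4 by 2-fold) and 3 higher (2 by 2-fold), and the median was -0.93. In shares, 70% were lower and 40% lower by 2-fold, against 37% and 10.5% of all tested genes, and 30% were higher and 20% higher by 2-fold, against 35.5% and 13.3%. With a pseudocount of 1 or a filter on every library only 1 receptor gene was higher by 2-fold. Edar, higher by 2-fold, passed the filter through the DKSFM line alone, so its direction came with the filter. Among the 9 genes covered in every library, 7 were lower (4 by 2-fold, or 44.4%) and 2 higher (1 by 2-fold, or 11.1%). Under that filter 8.62% of all genes were lower by 2-fold and 9.28% higher. Il1rl2, the receptor for interleukin-36, had 10.5, 9.28 and 10.5 in the KSFM-Ca2+ libraries and 0.536, 0.504 and 1.07 in the DKSFM libraries. Tlr2, a receptor for bacterial lipoproteins, had 9.0, 7.69 and 7.38 in the KSFM-Ca2+ libraries and 0.75, 0.605 and 0.749 in the DKSFM libraries. Both were lower in each DKSFM library by a wide margin. Their log2 fold changes were -3.73 (standard error 0.24, adjusted p = 2.02e-06) and -3.34 (standard error 0.13, adjusted p = 1.28e-07) in limma's test. The DKSFM values of both lay near the filter limit of 0.5, so the size of these fold changes depends on the pseudocount. Of the receptors of TNF, Tnfrsf1b was too low to be tested. Tnfrsf1a had 89.7, 86.5 and 84.2 in the KSFM-Ca2+ libraries and 173, 182 and 183 in the DKSFM libraries (1.04 on the log2 scale with a standard error of 0.04; limma, adjusted p = 6.85e-08). Ltbr, the lymphotoxin β receptor, rose from 86.8 ± 1.28 to 136 ± 2.0, and neighbours of these genes had medians of 0.40 and 0.41. The most abundant receptor gene per base, Tnfrsf12a, fell from 962 ± 50.7 to 482 ± 11.8.

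Most target genes of NF-κB were lower in the DKSFM cells. Of 33 tested genes of 40, 25 were lower (22 by 2-fold) and 3 higher (1 by 2-fold) at an adjusted p under 0.01, and the median was -2.12. The shares were 75.8% lower and 66.7% lower by 2-fold, against 37% and 10.5% of all tested genes. Some of these genes passed the filter through the KSFM-Ca2+ line alone, so that their direction came with the filter. Among the 25 target genes covered in every library, 19 were lower (15 by 2-fold, or 60%) and 3 higher, with a median of -1.5, where 38.6% of the 11124 genes under that filter were lower and 8.62% lower by 2-fold. The summed normalized coverage was 6296, 6448 and 7018 in the KSFM-Ca2+ libraries and 1997, 2034 and 2057 in the DKSFM libraries. Ccl2, Cxcl1, Cxcl5, C3, Ier3 and Plau in this list, and Il1a among the ligands, are genes the study chose from these libraries, and Ccl20 is named in its discussion, so these counts are not independent evidence of direction. Among all 40 genes, 27 had a promoter in the table, and 13 of their 30 windows (43.3%) held a κB match. The share was 8.46% of all windows and 10.5% of windows of tested genes. Counted by gene it was 48.1%, against 9.55% of all genes and 12.4% of tested genes. The genes were listed because they are targets of NF-κB, so this share is not independent evidence.

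The chemokine gene Cxcl1 was the most abundant target per base in the KSFM-Ca2+ cells and far from it in the DKSFM cells, listed at 2179.4, 1802.0 and 1689.8 (KSFM-Ca2+) and at 9.9, 10.4 and 11.2 (DKSFM). Csf3, for the growth factor of granulocytes, was listed at 201.0, 164.5 and 146.8 (KSFM-Ca2+) and at 0.2, 0.2 and 0.1 (DKSFM), and the chemokine gene Ccl20 at 138.5, 104.1 and 96.0 in the parent line and at 0.2 in the adapted one. Csf3 and Ccl20 were thus near the rounding step in the DKSFM libraries, and Cxcl1 was not. The fitted log2 fold change of Cxcl1 was -7.36. Csf3 and Ccl20 passed the filter through the KSFM-Ca2+ line alone, so their direction came with the filter. Their fitted fold changes also depend on the pseudocount and are not given. Not all targets followed. Icam1, which encodes a leukocyte adhesion receptor, had a normalized coverage of 6.00, 6.19 and 6.91 in the KSFM-Ca2+ libraries and 30.2, 32.3 and 32.3 in the DKSFM libraries. It was higher in every DKSFM library (2.30 on the log2 scale with a standard error of 0.07; limma, adjusted p = 2.76e-08), and Myc, which encodes a growth-promoting transcription factor, rose from 414 ± 8.94 to 618 ± 24.5. Sod2, a mitochondrial antioxidant gene often used as a marker of NF-κB activity and named here after its values were seen, was at 33.6 and 32.0 on average, with libraries that overlapped, and did not pass the threshold (limma, adjusted p = 0.15).

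**Figure D5:**
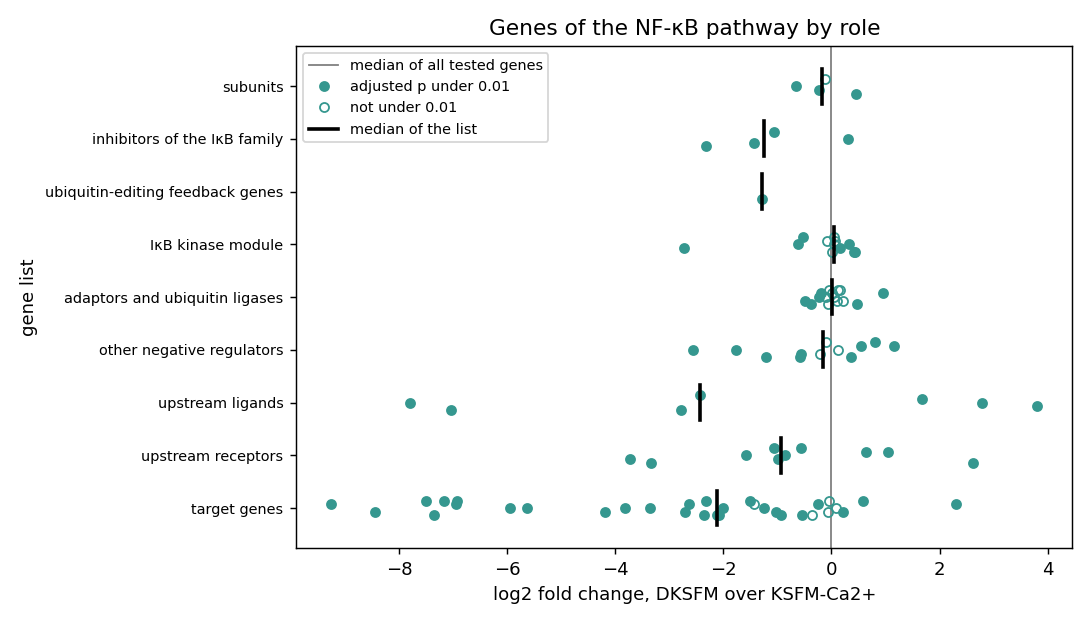
Log2 fold change, DKSFM over KSFM-Ca2+, of the tested genes of 9 lists, with a point per gene (filled at an adjusted p under 0.01) and a bar at the median of each list. Medians range from -2.43 for the ligands and -2.12 for the target genes to 0.04 for the IκB kinase module, beside 0.00 for all tested genes. Most ligand genes and some target genes passed the filter through 1 line alone, so their direction came with the filter. Among genes covered in every library the median is -0.56 for 2 ligands and -1.5 for 25 target genes.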

How the data were processed

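RNA-seq of 6 libraries was used, 3 of each line, grouped by the sample labels. What the authors deposited is a coverage signal, averaged over the bases of each gene, unscaled and without a filter; their processing notes name bcl2fastq, STAR, DESeq2 and mm10, and how coverage was computed is not stated. Coverage is not a count, so no count model was fitted here. Libraries were scaled by TMM without weights (trims of 30% of M and 5% of A values). A gene was tested if 3 or more libraries had normalized coverage of 0.5 or above, with limma on log2(normalized coverage + 0.1), with an intensity trend and no covariate. Fold changes are on that scale, which understates changes at low coverage. P-values were two-sided and adjusted by Benjamini-Hochberg over all tested genes, with thresholds of 0.01 and 2-fold.

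Members and lists were chosen with earlier results of these data known. Besides the members, Rel, Bcl3 and Nfkbid and the cell type markers, genes were named by rule. In each of 6 pathway lists these were up to 2 in each direction with the largest change, and the gene most abundant over all libraries. The former were taken from called genes without overlap whose mean coverage reached 5 in either line. The 3 nearest profiles to Nfkbia and to Nfkb2 were named too. Ikbkb and Sod2 were added after their values were seen. Positions and promoters came from RefSeq (GRCm38.p6). Neighbours were tested genes within 10 Mb, and positions were found for 12228 of the tested genes. Alternatives were other scalings, filters and pseudocounts, no trend, a replicate block, each library left out, combined libraries only, and subtraction of the neighbours' median. The procedure was tested on simulated data. R 4.3.3, limma 3.58.1, Python 3.11.15, pandas 2.3.3 and matplotlib 3.10.9 were used.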

Additional observations from a re-analysis of the deposited data

How the results depend on the processing

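Each of the 9 tested members was refitted under 16 alternatives of the fit. Of the 144 values, 134 kept both direction and side of the threshold, 9 kept the direction but lost the call (8 for Relb and 1 for Nfkbib), 1 gained it (Rela, library totals), and none changed sign. With the combined libraries only, 1 member was higher instead of 2 and 3012 genes in all were lower instead of 4606; that fit has 1 KSFM-Ca2+ library (replicate 3) and takes its spread from the DKSFM line. With a filter on every library, 1032 genes instead of 1651 were higher by 2-fold; fewer genes entered. Among Rel, Bcl3 and the genes named by rule from the 6 pathway lists, 3 lost the call with the combined libraries alone. These were Tbk1 (0.29), Tradd (-0.46) and Traf3 (-0.33), where all libraries gave log2 fold changes of 0.33, -0.49 and -0.37. Rel changed sign under quantile normalization (-0.0353, adjusted p = 0.727; over all alternatives 0.0792 to 0.727). The test of Nfkbid is not used, and other named genes, such as Ikbkb, Sod2 and the cell type markers, are not covered by these alternatives. Relative to the neighbours' median, Nfkbib turned to -0.26 and Tradd to 0.0514, and the cause was not tested. Leaving out each library in turn gave 5 to 6 members lower, 2 higher and 3 to 4 lower by 2-fold, 3 without DKSFM replicate 3.

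With the replicate number as a replicate block, 5 members were lower and 2 higher, and in all 4460 genes were lower and 4275 higher. Same-numbered libraries did not deviate together (correlations of -0.00864, 0.0227 and -0.0204). These values gave no sign of pairing by number, but they cannot show that same-numbered samples were handled separately. Values near 0.1 carry the rounding error, which limits Birc3, Nfkbid and the DKSFM values of Tnf, Csf3 and Ccl20.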
